A study of Mus musculus with 9 samples.

Results

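The genes of motile cilia were examined in ovaries of athymic mice (BALB/c nude females) in which MDA-MB-231 cells, a human breast cancer line, had been grown as xenografts. The CTX group was given cyclophosphamide, an alkylating chemotherapy drug, the CAU group was labelled caulerpin, an indole alkaloid of green algae, and the UT group had no treatment. Each group had 3 libraries, and all 3 groups carried the xenograft. The labels do not say whether the CAU mice also received cyclophosphamide, and give no dose, time or age. Of 36 genes named as motile cilia genes, 34 were found by symbol among the 19517 genes of the authors' deposited table, and all 34 had values in each of the 3 comparisons. The remaining pair, Dnai1 and Dnai2, are listed in that table under the older symbols Dnaic1 and Dnaic2, and their values are given separately.

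Motile cilia are microtubule-based organelles that beat to move fluid or cells. Dynein arms slide neighbouring microtubule doublets, while radial spokes, a central apparatus and nexin links turn the sliding into a controlled beat. Multiciliated cells make many such cilia after a switch that runs through the coregulators GMNC and MCIDAS to the transcription factors FOXJ1, RFX2 and RFX3. In the female reproductive tract these cells line the oviduct, which lies against the ovary, while granulosa cells and stroma carry at most a single primary cilium.

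No motile cilia gene passed the threshold, a DESeq2 adjusted p under 0.05, in any comparison. In CTX against UT the members were mostly lower with wide errors, with a median log2 fold change of -0.88 and a median SE of 1.31. In CAU against CTX they were mostly higher (median 0.57, median SE 1.13), and in CAU against UT they lay slightly below 0 (median -0.27, median SE 1.38). All these values come from the authors' deposited table, which gives 1 log2 fold change and 1 DESeq2 p-value for each gene and pair of groups. The standard error (SE), on the log2 scale, was worked back from these, and intervals are 95% intervals from it. Since it holds no value for a single library, the overlap between libraries and the level of each gene were not examined. The labels number the libraries without naming separate mice, so p-values measure the spread between samples, which may be technical in part. Every fold change is read as the first named group over the second. The headers leave this unsaid, and reading them the other way would flip the sign of every value. In bulk tissue, fewer cells of a type and less RNA per cell cannot be told apart.

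The members lie on 16 chromosomes, with 6 of the 34 on chromosome 11. Their promoters were searched for GTTGCC on both strands, a core of the X-box motif that RFX factors bind, because 2 members encode such factors and most members had values of the same sign. RefSeq's promoter table for GRCm38.p6 held windows of 300 bases for 29 of the 34. Of these 29 genes, 15 (51.7%) had GTTGCC in a window, against 3821 of 27025 genes (14.1%) with a window in the whole table and 2245 of 15417 (14.6%) among genes of the deposited table. The member windows had a median GC content of 55.0%, against 58.0% for genes of the deposited table. Counting each genome position once, there were 21 such motifs, 17 of them before the annotated start site. The windows below show 9 bases on either side of the motif, 5′ to 3′ on the gene's strand, with 1 motif of each window in capitals (GGCAAC where it lies on the opposite strand). They are shown for regulators and for axonemal genes of different roles, so that the letters around the shared core can be compared.
Rfx2, chr17:56831110-56831133, minus strand: ttggtaaccGTTGCCgggcgcaac
Rfx3, chr19:28011121-28011144, minus strand: atagcaaccGTTGCCttgtgaatc
Mcidas, chr13:112993664-112993687, plus strand: ggaagccagGTTGCCaggttggtt
Ccno, chr13:112987574-112987597, plus strand: cgggctgcgGTTGCCacggtgacg
Cfap44, chr16:44394771-44394794, plus strand: cgttgctatGGCAACcgcagtaaa
Hydin, chr8:110266955-110266978, plus strand: ggttgctgtGGCAACagatggtaa
Tekt1, chr11:72361883-72361906, minus strand: gtccgtccgGTTGCCatagagacc
Tekt2, chr4:126325696-126325719, minus strand: cggttgctcGGCAACcagagccgc
Spag16, chr1:69826850-69826873, plus strand: gggtaactaGGCAACgcgttgccg
Drc1, chr5:30281373-30281396, plus strand: ctttcccttGGCAACggcttgttc

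A paired form of the motif was also searched for, GTTNCC followed after 0 to 3 bases by GGNAAC. Pairs that depart from these letters, as in the Cfap44 window above, were not counted. The exact form was found in 1 of the 29 members and in 253 of 27025 genes (0.936%). This member was Fam183b, whose protein is found in cilia. Its window, chr11:58801911-58802210 on the minus strand, is printed whole, with the paired form and a further single core in capitals.
Fam183b: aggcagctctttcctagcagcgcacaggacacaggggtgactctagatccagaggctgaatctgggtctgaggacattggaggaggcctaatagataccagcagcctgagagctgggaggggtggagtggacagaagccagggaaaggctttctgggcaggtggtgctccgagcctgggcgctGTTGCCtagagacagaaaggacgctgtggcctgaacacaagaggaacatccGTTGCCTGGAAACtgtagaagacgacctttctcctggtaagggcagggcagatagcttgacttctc
The forkhead motif GTAAACA, searched on both strands, was in 1 of the 29 members (Cfap43) and in 4.05% of all genes with a window. A match describes the letters of a window and no more. The values did not separate by it. In CTX against UT in the authors' deposited table, the 15 members with GTTGCC had a median log2 fold change of -0.88 and the 14 without it a median of -0.91, and in CAU against CTX the medians were 0.56 and 0.58.

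**Figure D1:**
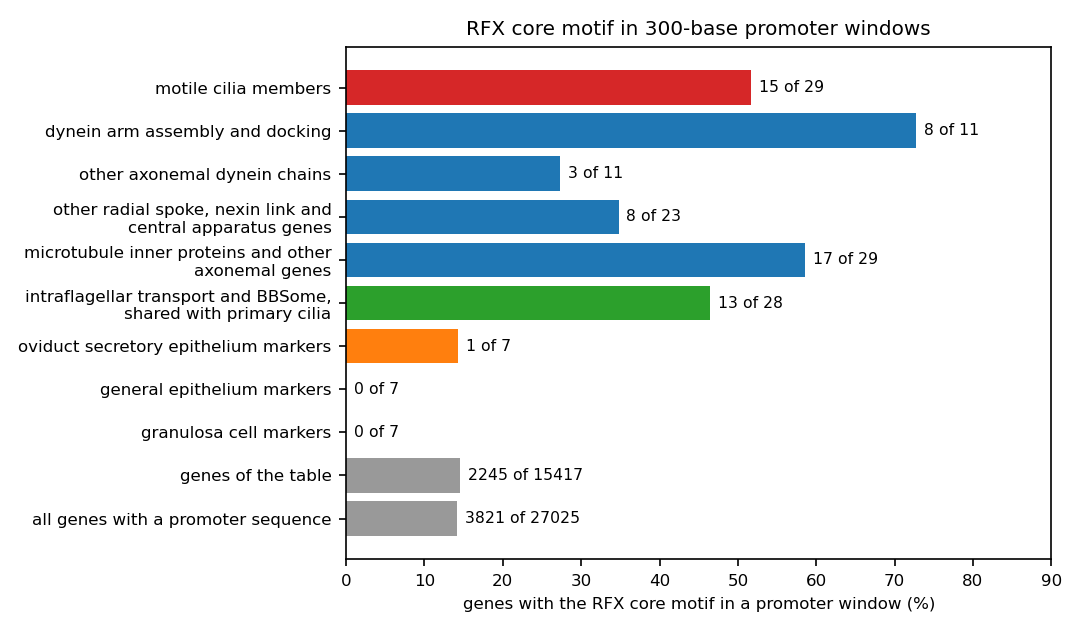
Share of genes (x axis, percent) with the RFX core motif in a promoter window of 300 bases, for the motile cilia genes (red), further motile cilia genes (blue), intraflagellar transport genes (green), markers of other cells (orange) and all genes (grey), with counts beside the bars. The motif was in 51.7% of motile cilia genes with a window and in 14.1% of all genes.

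The 5 regulators differed widely in the precision of their values, with SE from 0.15 to 1.65 in CTX against UT. Foxj1, the forkhead factor that drives motile cilia genes, lies at chr11:116330704-116335499 (GRCm38.p6). The authors' deposited table gives it a log2 fold change of -0.65 in CTX against UT (SE 1.65), 0.51 in CAU against CTX (SE 1.42) and -0.14 in CAU against UT (SE 1.58). Its interval in CTX against UT ran from -3.88 to 2.58, so a fall or a rise of several fold both lie within it. Rfx2 and Rfx3, which RFX-dependent programmes of both motile and primary cilia use, were measured more closely. The authors' deposited table gives Rfx2 -0.24 (SE 0.49) in CTX against UT and 0.16 (SE 0.36) in CAU against CTX. Rfx3 was at -0.13 (SE 0.35) and 0.05 (SE 0.19) in the same comparisons of the authors' deposited table.

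Mcidas and Ccno, which are needed for the centriole amplification of multiciliated cells, are neighbours on chromosome 13, with 2802 bases between them (Ccno at chr13:112987802-112990778, Mcidas at chr13:112993581-113000394). In the authors' deposited table Ccno was at 0.14 (SE 0.15) in CTX against UT, -0.01 (SE 0.15) in CAU against CTX and 0.14 (SE 0.17) in CAU against UT. Its interval in CTX against UT, from -0.15 to 0.42, leaves out a 2-fold difference in either direction. Mcidas was at -0.60 (SE 1.15), 0.01 (SE 1.29) and -0.59 (SE 1.30) in the same 3 comparisons of the authors' deposited table. Cdc20b, the next gene of that locus, named after its values were seen, was at -0.02 (SE 1.22) in CTX against UT in the authors' deposited table. Ccno is thus measured about as closely as a typical gene, with the median SE of all genes at 0.21, while its neighbours are not.

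The outer arm dynein heavy chains, motors that set beat frequency, were below 0 in CTX against UT without passing the test. In the authors' deposited table Dnah5 was at -1.04 (SE 1.73), Dnah9 at -0.88 (SE 1.40) and Dnah11 at -0.81 (SE 1.39). The 3 outer arm genes ranged from 0.47 to 0.57 in CAU against CTX in the authors' deposited table. Dnah5 had the largest SE of all members in CTX against UT.

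Of the 7 inner arm dynein heavy chains, which shape the bend of the cilium, 6 were below 0 in CTX against UT and Dnah2 was not. By the authors' deposited table, Dnah2 was at 0.18 (SE 0.19) in CTX against UT, -0.24 (SE 0.23) in CAU against CTX and -0.05 (SE 0.25) in CAU against UT. It is the only member above 0 in CTX against UT beside Ccno, and its intervals leave out a 2-fold difference in all 3 comparisons. Dnah10 was the next most closely measured, at -0.41 (SE 0.62) in CTX against UT in the authors' deposited table. Dnah1, Dnah3, Dnah6, Dnah7a and Dnah12 lay between -0.66 and -1.12 in that comparison, with SE from 1.11 to 1.70. Dnah7a has close copies in Dnah7b and Dnah7c, so reads may be shared between them. The copies, named outside the rule, were at -0.49 (SE 0.42) and -0.71 (SE 0.80) in CTX against UT, where Dnah7a was at -0.88 (SE 1.13) by the authors' deposited table. In CAU against CTX Dnah7a was at 0.62 (SE 0.97), Dnah7b at -0.04 (SE 0.28) and Dnah7c at 0.36 (SE 0.54).

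The light intermediate chain gene Dnali1 was at -0.94 (SE 1.38) in CTX against UT and 0.65 (SE 1.23) in CAU against CTX in the authors' deposited table. Dnaic1 and Dnaic2, the outer arm intermediate chains, were at -0.92 (SE 1.53) and -0.60 (SE 1.34) in CTX against UT in the authors' deposited table. Both were above 0 in CAU against CTX, at 0.61 (SE 1.35) and 0.43 (SE 1.16).

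Among radial spoke genes, Rsph9 had the smallest unadjusted p of any member in CTX against UT. In the authors' deposited table it was at -0.73 (SE 0.64, p = 0.251, adjusted p = 0.872 by DESeq2) there, 0.45 (SE 0.51) in CAU against CTX and -0.28 (SE 0.66) in CAU against UT. Rsph1 and Rsph4a, which encode parts of the spoke head, were at -0.85 (SE 1.35) and -0.92 (SE 1.64) in CTX against UT in the authors' deposited table. Ccdc39 and Ccdc40, the ruler that sets the repeat of spokes and inner arms along the doublet, were at -0.62 (SE 0.63) and -1.03 (SE 1.54). Drc1, a scaffold of the nexin link, was at -0.55 (SE 1.62) in that comparison of the authors' deposited table.

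The central apparatus genes had the lowest median of any role in CTX against UT, -1.13 over 4 genes. By the authors' deposited table, Spag16 was at -1.21 (SE 1.16), Spag17 at -1.20 (SE 1.10), Spag6l at -1.07 (SE 1.55) and Hydin at -0.87 (SE 1.63). The same genes were at 0.94, 0.70, 0.92 and 0.60 in CAU against CTX in the authors' deposited table, with SE from 0.90 to 1.45. Spag6l has a close copy in Spag6, and reads may be shared between them. In the authors' deposited table Spag6 was at 0.15 (SE 0.77) in CTX against UT and -0.36 (SE 0.78) in CAU against CTX.

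The tektins, filament proteins inside the doublets, had the highest median of any role in CAU against CTX, 0.90 over 3 genes. By the authors' deposited table, Tekt4 was at 1.05 (SE 1.23), Tekt1 at 0.90 (SE 1.13) and Tekt2 at 0.56 (SE 0.62) in CAU against CTX. In CTX against UT they were at -1.11 (SE 1.15), -1.04 (SE 1.38) and -0.90 (SE 0.84). Of the other cilia proteins, Cfap126, which positions basal bodies, was at -1.19 (SE 1.20) in CTX against UT and 0.88 (SE 0.94) in CAU against CTX in the authors' deposited table. Fam183b was at -1.10 (SE 1.29) and 0.83 (SE 1.06) in the same comparisons of the authors' deposited table. Cfap43 and Cfap44, of the complex that tethers the inner arm f dynein, were at -0.76 (SE 1.34) and -0.96 (SE 1.48) in CTX against UT. Tppp3, a tubulin polymerisation protein that other cells also make, was at -0.59 (SE 0.71) there in the authors' deposited table, and at 0.52 (SE 0.61) in CAU against CTX.

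**Figure D2:**
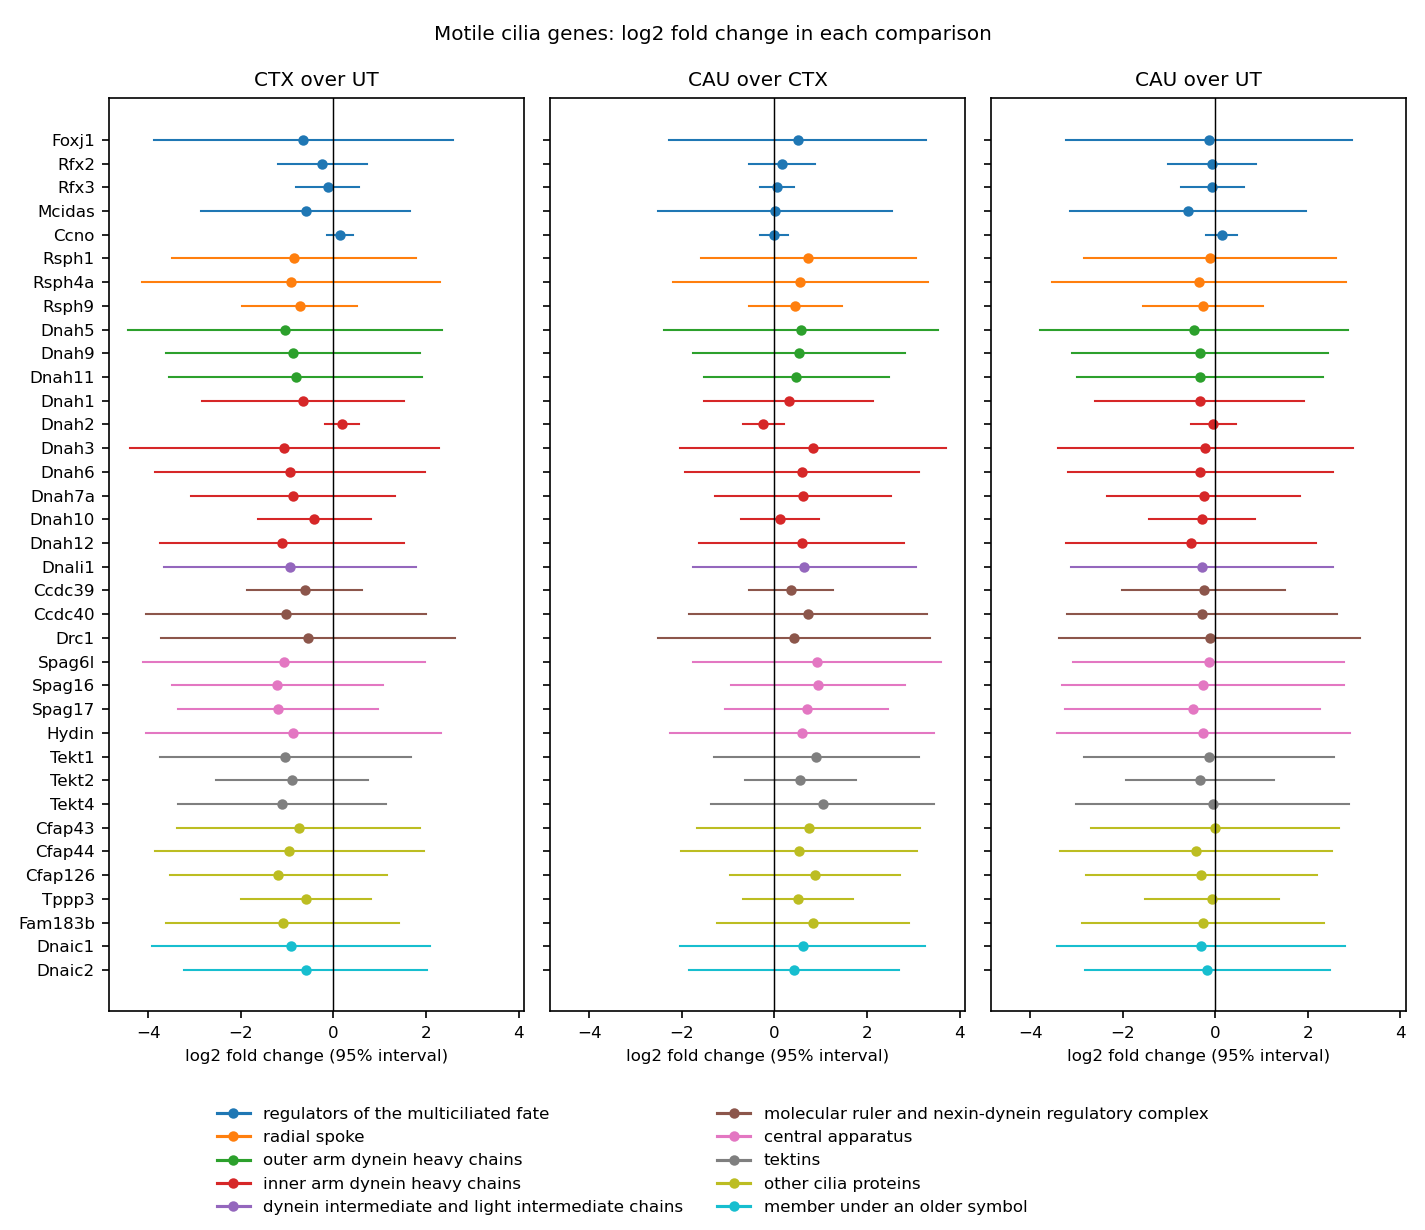
Log2 fold change (points) with 95% interval (lines) of each motile cilia gene, coloured by role, in CTX over UT (left), CAU over CTX (middle) and CAU over UT (right). Every interval contains 0, and those of Ccno, Dnah2 and Rfx3 are the narrowest in CTX over UT.

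In CTX against UT, 0 of the 34 members were called by the DESeq2 adjusted p, where 1.29% of all 19260 genes tested were called, and 0 had an unadjusted p under 0.05, where 10.2% of all genes did. The adjusted p-values of the members in the authors' deposited table ran from 0.872 to 0.978. Of the 34 members, 32 had a negative log2 fold change, against 55.8% of all genes. A log2 fold change below -0.5 was found in 29 members and in 19.5% of all genes. The 25 members with an SE above 1 had a mean of -0.937. All 1185 genes with an SE in their range had a mean of -0.717, and the difference was not tested. The 95% intervals of 31 members reached a 2-fold fall, 24 reached a 2-fold rise as well, and 3 excluded a 2-fold difference in both directions. These 3 were Ccno, Dnah2 and Rfx3. Over the 9 members with an SE of at most 1 the median was -0.41.

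In CAU against CTX, 0 members were called by the DESeq2 adjusted p (0.442% of 19245 genes were called, 0.312% higher and 0.13% lower), and 0 had an unadjusted p under 0.05 (5.36% of all genes). Log2 fold changes were positive in 32 of 34 members, against 52.3% of all genes, and above 0.5 in 23, against 14.3% of all genes. The 14 members with an SE of at most 1 had a median of 0.41. The 25 members with an SE above 1 in CTX against UT had a mean of 0.649 here. The 1320 genes with an SE in their range here had a mean of 0.536, and 29.0% of them were negative. The difference was not tested. The members below 0 were Dnah2 and Ccno. The unadjusted p-values ran from 0.294 to 0.996 in the authors' deposited table. The 95% intervals reached a 2-fold rise in 29 members and a 2-fold fall in 23.

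In CAU against UT, 0 members were called by the DESeq2 adjusted p (0.0518% of 19302 genes were called, 0.0311% higher and 0.0207% lower), and 0 had an unadjusted p under 0.05 (3.46% of all genes). All members but Ccno were below 0, with log2 fold changes from -0.59 to 0.14, though Cfap43 was at 0.000123 once the median of all genes was set to 0. A value below -0.5 was found in 2. Of all genes, 52.2% were below 0. Among 1291 genes with an SE in the range of the 25 least precise members of CTX against UT, 61.6% were. The intervals of 29 members included both a 2-fold fall and a 2-fold rise, so the closeness of these values to 0 does not show that CAU and UT ovaries had alike levels. The 3 comparisons share their groups, so the opposite signs of the first pair and the small values of the third are not separate results.

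**Figure D3:**
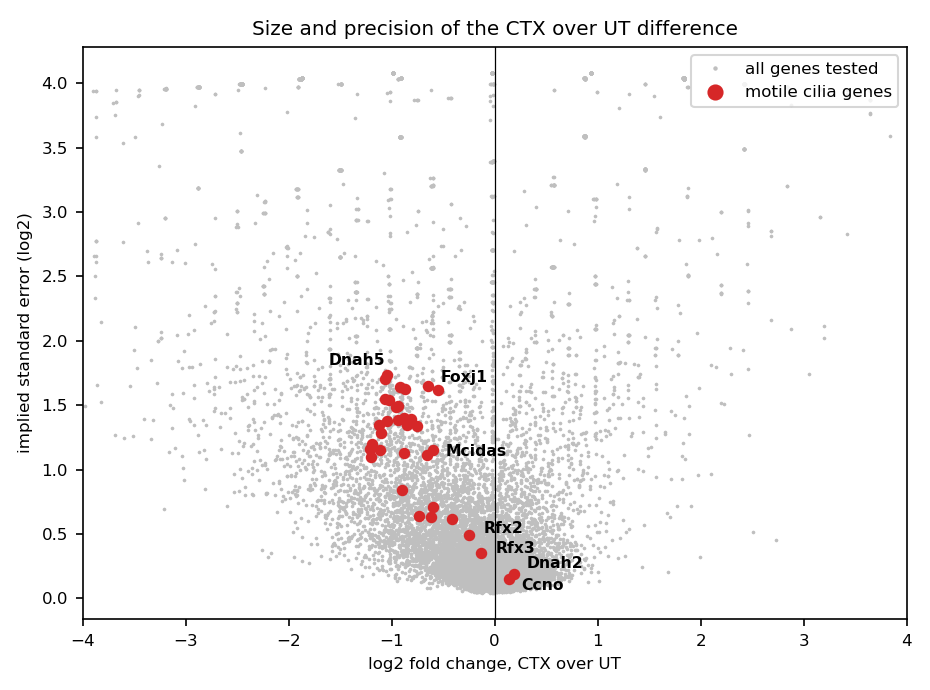
Implied standard error (y axis, log2) against log2 fold change in CTX over UT (x axis) for the 34 motile cilia genes (red) and all genes tested (grey); 74 genes beyond 4 in size are not drawn. Most motile cilia genes sit together between -0.55 and -1.21 with standard errors from 1.10 to 1.73. Ccno, Dnah2, Rfx3 and Rfx2 lie nearer 0 with smaller errors, of 0.15, 0.19, 0.35 and 0.49.

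Most members formed a narrow group that was imprecise as a whole. In CTX against UT, 25 of 34 members (73.5%) had an SE above 1, against 19.2% of all genes. These 25 lay between -1.21 and -0.55, with an SD among genes of 0.188, while their median SE was 1.38. The 1185 genes of any kind with an SE in the same range had an SD among genes of 1.09, and 76.5% of them were negative. In CAU against CTX the same 25 members had an SD among genes of 0.225 beside a median SE of 1.23, and in CAU against UT an SD of 0.147 beside a median SE of 1.44. The members therefore differed among themselves by much less than their errors, and their number does not add to the number of libraries. Were the spread equal in both groups of 3, a median SE of 1.38 would stand for an SD between libraries of 1.70 on the log2 scale, or 3.24-fold. A low read count and a spread between libraries both raise an SE. For a single gene they cannot be told apart in this table, and their shares over the 25 members were not tested.

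The squared SEs of the 3 comparisons can be split into a part for each group, if each group adds its own error. By this split UT held the largest part in 30 of 34 members, CAU in 4 and CTX in 0. Over the 18773 genes with all 3 comparisons, UT held it in 57.8%, CAU in 35.9% and CTX in 6.32%. Among the 3217 of these genes with an SE above 1 in CTX against UT, UT held it in 48.6%. For 2 members the split gave a negative part, so it is approximate. Whether the errors of DESeq2 meet its condition was not tested, so the parts are not a measured spread among the libraries of a group.

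Further genes of motile cilia were taken from 4 lists that share no gene with the members. Of 88 such genes, 84 were negative in CTX against UT with a median of -0.86 (median SE 1.06), and 84 were positive in CAU against CTX with a median of 0.59 (median SE 0.90). In CAU against UT 33 of the 34 members (97.1%) were negative with a median of -0.27, and 71 of the 88 further genes (80.7%) with a median of -0.20. The difference between these lists and the members was not tested. In CTX against UT, 1 of the 88 was called lower, where 0.82% of all genes were, and none was called higher. This gene was Cfap53, whose protein is needed for motile cilia and left-right patterning, at -0.78 (SE 0.18, adjusted p = 0.00237 by DESeq2) in the authors' deposited table. Its SE is far below those of most members, and its value is within their range. It was at 0.50 (SE 0.15, adjusted p = 0.106 by DESeq2) in CAU against CTX and at -0.27 (SE 0.20) in CAU against UT. In CAU against CTX, 0 of the 88 were called by DESeq2 (0.442% of all genes were), and 2 had an unadjusted p under 0.05 (5.36% of all genes). In CAU against UT, 0 were called (0.0518% of all genes were), and 1 had an unadjusted p under 0.05 (3.46% of all genes). The most closely measured genes that were not called included Dnaaf2, a dynein assembly factor, at -0.03 (SE 0.09), Gas8, of the nexin link, at -0.10 (SE 0.15) and Dnal4 at -0.12 (SE 0.16) in CTX against UT in the authors' deposited table.

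Intraflagellar transport genes gave small and precise values. The 32 genes of intraflagellar transport and the BBSome, which carry cargo in both primary and motile cilia, had a median of -0.12 in CTX against UT (median SE 0.23), 0.06 in CAU against CTX (median SE 0.15) and -0.03 in CAU against UT (median SE 0.25). All 32 had intervals that excluded a 2-fold difference in each comparison. By DESeq2, 0 were called (1.29%, 0.442% and 0.0518% of all genes were), and 0 had an unadjusted p under 0.05 (10.2%, 5.36% and 3.46%). Kif3b, a motor subunit of this transport, was at 0.09 (SE 0.10) in CTX against UT in the authors' deposited table. Their promoters held GTTGCC in 13 of 28 genes with a window (46.4%), close to the share in the members. Of 15 genes of centriole amplification, 1 was called higher in CTX against UT (0.472% of all genes were), with a list median of -0.01. It was Stil, a centriole duplication factor of dividing cells, at 0.77 (SE 0.22, adjusted p = 0.0325 by DESeq2) in the authors' deposited table. The 12 genes listed as other regulators of multiciliogenesis, further RFX family genes among them, were mixed in CTX against UT. There 0 were called by DESeq2, with a median of -0.06, a range from -1.55 to 0.52 and an SE above 1 in 6 of them. The closest measured was Rfx5, an RFX family gene rather than a regulator of multiciliogenesis, at 0.30 (SE 0.10) by the authors' deposited table. Gmnc, Myb and Trp73, which act early in the multiciliated fate and are named here after their values were seen, were at -1.55 (SE 1.37), -1.48 (SE 1.61) and -0.79 (SE 1.06) in CTX against UT in the authors' deposited table. In CAU against CTX these 3 were at 1.39 (SE 1.08), 1.13 (SE 0.86) and 0.70 (SE 0.76) by the authors' deposited table. There the 12 genes had a median of 0.02, with 7 positive and 5 negative. Gmnc was the lowest of the 12 in CTX against UT and the highest in CAU against CTX.

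**Figure D4:**
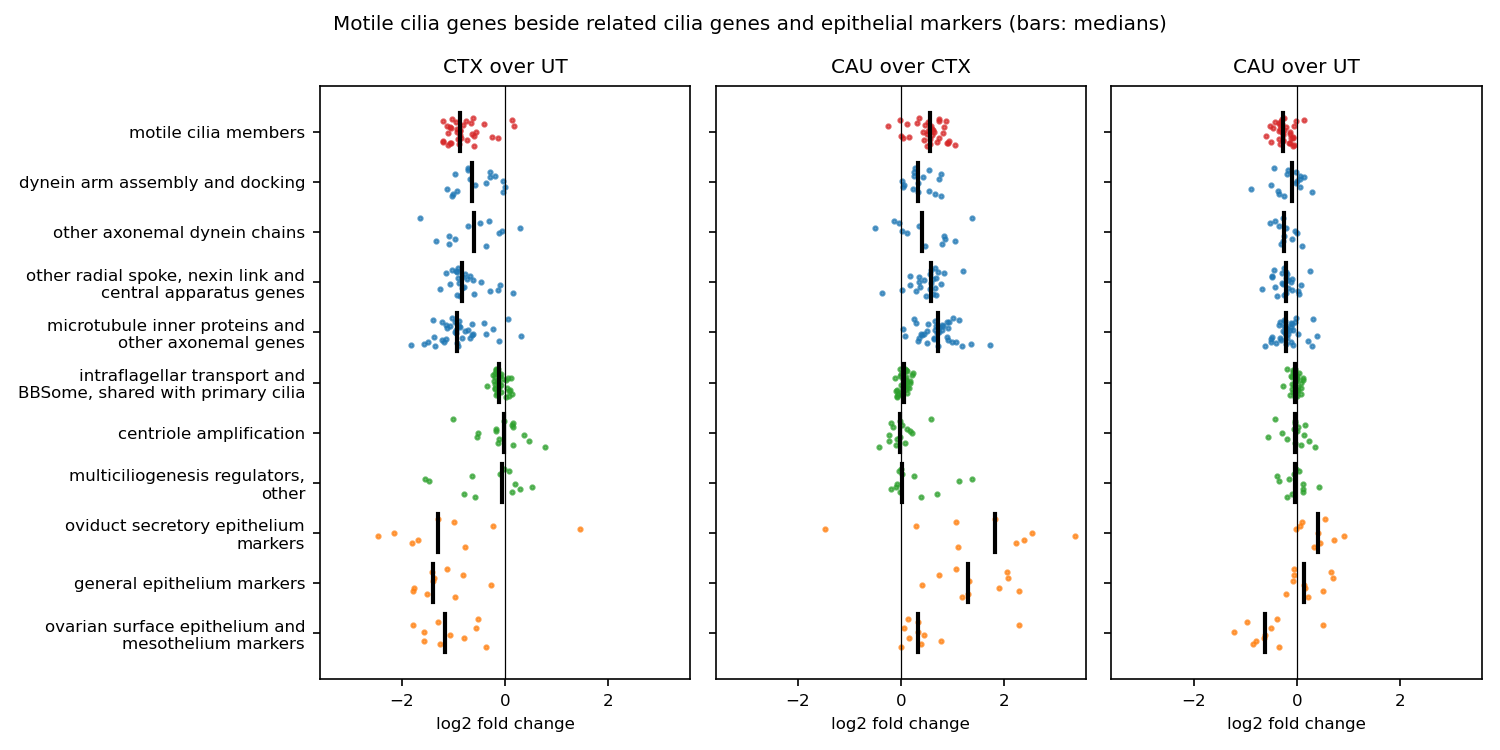
Log2 fold changes of single genes (points) and list medians (black bars) for motile cilia genes (red), further motile cilia genes (blue), other cilia lists (green) and epithelial markers (orange) in the 3 comparisons. In CTX over UT the red and blue lists have medians from -0.60 to -0.94, and the intraflagellar transport list has -0.12.

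Markers of epithelia that can come with an ovary had values of the same sign as the members in CTX against UT and in CAU against CTX. The 9 markers of oviduct secretory cells, which sit beside the ciliated cells, had median SE of 1.10, 0.86 and 1.26 in the 3 comparisons. Of these, 8 were negative in CTX against UT (median -1.30, range -2.47 to 1.46). Positive values were found in 8 in CAU against CTX (median 1.84, range -1.48 to 3.38) and in 8 in CAU against UT (median 0.40). Of the 9 intervals in CAU against UT, 8 included both a 2-fold fall and a 2-fold rise. Ovgp1, the oviduct glycoprotein, named outside the rule, was the lowest of this list in CTX against UT and the highest in CAU against CTX. It was at -2.47 (SE 1.69) and 3.38 (SE 1.22, adjusted p = 0.399 by DESeq2) in these comparisons in the authors' deposited table. All 10 general epithelium markers were negative in CTX against UT (median -1.39, median SE 0.94). All were positive in CAU against CTX (median 1.31, median SE 0.74). In CAU against UT the secretory median lay above 0 and the members' median below 0, a difference that was not tested. None of the oviduct or general epithelium markers was called by DESeq2 in any comparison, and in CAU against CTX 6 of the 9 and 4 of the 10 had an unadjusted p under 0.05, as did 5.36% of all genes.

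Of 10 markers of ovarian surface epithelium and mesothelium, 2 were called lower in CTX against UT (0.82% of all genes were), and all 10 were negative, against 55.8% of all genes (median -1.17, median SE 0.38). Krt19 is in this list and in the general epithelium list. These were Upk3b, a mesothelial uroplakin, at -1.27 (SE 0.32, adjusted p = 0.0111) and Lrrn4 at -1.57 (SE 0.43, adjusted p = 0.0233), by DESeq2 in the authors' deposited table. The surface list had a median of 0.34 in CAU against CTX and -0.62 in CAU against UT. The 9 smooth muscle markers had medians of -0.02, 0.19 and 0.10 in the 3 comparisons, with 0 called by DESeq2. The part of these cell types in the values of the motile cilia genes was not tested, and without levels it cannot be said which markers were at 0.

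As to the labelled tissue, all 10 granulosa cell and all 10 oocyte markers examined had values, with median SE of 0.18 and 0.16 in CTX against UT. Of the granulosa markers, 3 were called higher there (0.472% of all genes were), and the list median was 0.52 in CTX against UT, -0.16 in CAU against CTX and 0.35 in CAU against UT. In the authors' deposited table these were Inhbb at 1.00 (SE 0.21), Fst at 0.67 (SE 0.15) and Inhba at 1.20 (SE 0.32). Inhbb alone was called lower in CAU against CTX (0.13% of all genes were), at -0.47 (SE 0.09). The oocyte list had medians of 0.12, -0.11 and 0.03 with 0 called by DESeq2.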

How the data were processed

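RNA-seq libraries of ovarian tissue from 9 samples in 3 groups of 3 were compared, with groups taken from the sample titles. Per the submitters' processing notes, the authors used DESeq2 1.44.0, RSEM 1.3.1, HISAT2 and Bowtie2 with mouse build GRCm38.p6, and roles and order are unstated. Per the file headers, the authors' deposited table gives each gene 3 values per pair of groups: the log2 fold change, the p-value of DESeq2 and its q-value. It holds no value per library, so depth is unknown and no count test was run. The planned edgeR fit, fits without a replicate and fits with a replicate block were not run for that reason.

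The q-value is called adjusted p, and a gene was called changed where it was under 0.05. Recomputing a Benjamini-Hochberg adjustment from the deposited p-values gave q-values within 7.74e-05. Where a header names a pair of groups, the second was taken as the numerator. The 3 columns share 1 convention, since they added up within 0.01 of a constant in 18772 of 18773 genes. With this reading Cdkn1a, a p53 target, was at 1.99 in CTX against UT in the authors' deposited table.

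The standard error (SE) is the absolute log2 fold change over the absolute z of its p-value, and intervals are 95% normal intervals. This step was run on simulated data whose p-values were made from known SEs by the same formula. That run checks the code only, not whether the deposited p-values follow the formula. Members and lists were chosen with earlier results of these data known, so no list was tested. Any member could be named, and of each further list up to 4 called genes, or the most precise gene where none was called. Promoter sequences are RefSeq's for GRCm38.p6 (250 bases before to 50 after a start site), matched by gene ID. Alternatives were another threshold, centring, scaling of z and a limit on the SE. Scripts ran in Python 3.11.15 with scipy 1.17.1, pandas 2.3.3, numpy 2.4.6 and, for figures, matplotlib 3.10.9.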

Additional observations from a re-analysis of the deposited data

How the results depend on the processing

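The count of called motile cilia genes was 0 in each comparison under all 5 alternatives, namely adjusted p thresholds of 0.10 and 0.01, the median of all genes set to 0, z scaled to a spread of 1, and only genes with an SE of at most 1. Neither threshold could change this count, since the smallest adjusted p of a member by DESeq2 was 0.872, in CTX against UT. The median of the members moved with the limit on the SE, which left 9, 14 and 9 of them in the 3 comparisons. It was -0.41 in CTX against UT, 0.41 in CAU against CTX and -0.08 in CAU against UT, by construction over fewer genes. Centring moved all values by 0.03 or less and turned 1 sign, that of Cfap43 in CAU against UT, to 0.000123. The other alternatives leave the log2 fold changes of single genes as they are, so signs could not turn under them. Over all genes, scaling z raised the calls from 85 to 237 in CAU against CTX and from 10 to 255 in CAU against UT. The other threshold gave 415 or 117 calls in CTX against UT, where 249 were called, and 43 in CAU against CTX at the stricter one. No paired analysis was possible because the deposited table holds no values per library, and for the same reason edgeR and fits without a replicate were not run. Depth per library is unknown. For most members the wide intervals, not a measured lack of change, are what the uncalled values show. The intervals of 3, 5 and 3 members excluded a 2-fold difference in CTX against UT, CAU against CTX and CAU against UT.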
